A study of Rattus norvegicus with 6 samples.

Results

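Osteopontin and 8 further genes of scar-associated macrophages were examined in whole-lung RNA of rats that breathed silica dust. The genes were Spp1, Gpnmb, Trem2, Cd9, Cd63, Cd44, Fabp5, Lgals3 and Apoe, with every probe set annotated to 1 of them alone. They were taken by name, by a rule that uses no measured values, but with earlier results of these data known. All 9 were measured, by 12 of the 31042 probe sets compared, among 14217 named genes in the whole table. A probe set is a group of short oligonucleotides read together as 1 signal on a 1-colour array. Trem2, Cd44 and Apoe had 2 probe sets each, and a gene was led by its brightest probe set, which all counts of genes below use. The silica group (lung_silica) held 3 Lewis rats, an inbred strain, that inhaled an aerosol of crystalline silica at 6.2 mg/m3, on 5 days of each week for 6 hours, during 6 weeks. Filtered air was the exposure of the control group (lung_control), which held 3 Lewis rats kept under like chamber conditions. Each animal gave 1 array. The sources used here do not give the animals' age or sex, nor when lungs were taken after the last exposure.

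Osteopontin, the product of Spp1, is a secreted phosphoglycoprotein that binds integrins and CD44 and is cleaved by matrix metalloproteinases and thrombin. Macrophages with high SPP1 have been described in human fibrotic lung, and macrophages carrying TREM2 and CD9 in the scars of human cirrhotic liver. Trem2 is a lipid-sensing receptor that signals through the adaptor Tyrobp, Gpnmb is a transmembrane glycoprotein of lipid-loaded and osteoclast-like cells, and Fabp5 and Apoe carry fatty acids and cholesterol. Lung epithelium, endothelium and lymphocytes also make several of these products.

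RefSeq promoter windows of the rat build GRCr8, each 250 bases before to 50 after a gene's start, were matched for 7 of the 9 genes, and Fabp5 and Lgals3 were not matched. Those of Spp1, Gpnmb and Trem2 are shown because these genes had the 3 largest log2 fold changes of the group, and that of Cd63 because its window holds the same M-box letters as Gpnmb. Spp1 lies at chr14:5619755-5620054 on the minus strand, Gpnmb at chr4:79340878-79341177 on the plus strand, Trem2 at chr9:20151730-20152029 on the minus strand and Cd63 at chr7:1921894-1922193 on the plus strand. All are written 5′ to 3′, with capitals marking matches to TCACATGA (an M-box, which MITF and its relatives bind), CACGTG (an E-box), TGANTCA (AP-1) and ACCGCA (RUNX), searched on both strands.
Spp1: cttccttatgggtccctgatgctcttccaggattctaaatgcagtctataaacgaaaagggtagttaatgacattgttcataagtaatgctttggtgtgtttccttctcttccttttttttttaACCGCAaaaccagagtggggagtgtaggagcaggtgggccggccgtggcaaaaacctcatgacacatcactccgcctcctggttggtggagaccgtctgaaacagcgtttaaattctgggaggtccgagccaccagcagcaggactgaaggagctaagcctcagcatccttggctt
Gpnmb: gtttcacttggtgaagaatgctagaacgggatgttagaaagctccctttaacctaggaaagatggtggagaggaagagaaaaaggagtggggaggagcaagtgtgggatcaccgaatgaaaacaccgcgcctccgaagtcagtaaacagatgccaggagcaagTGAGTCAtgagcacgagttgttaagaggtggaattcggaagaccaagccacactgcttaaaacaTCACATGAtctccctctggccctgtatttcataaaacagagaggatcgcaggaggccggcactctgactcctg
Trem2: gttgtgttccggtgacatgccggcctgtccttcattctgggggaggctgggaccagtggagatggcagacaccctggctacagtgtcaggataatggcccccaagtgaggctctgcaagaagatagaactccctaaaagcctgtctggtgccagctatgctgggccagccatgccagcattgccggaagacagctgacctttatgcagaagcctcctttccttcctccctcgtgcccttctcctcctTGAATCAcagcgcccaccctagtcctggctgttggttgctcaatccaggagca
Cd63: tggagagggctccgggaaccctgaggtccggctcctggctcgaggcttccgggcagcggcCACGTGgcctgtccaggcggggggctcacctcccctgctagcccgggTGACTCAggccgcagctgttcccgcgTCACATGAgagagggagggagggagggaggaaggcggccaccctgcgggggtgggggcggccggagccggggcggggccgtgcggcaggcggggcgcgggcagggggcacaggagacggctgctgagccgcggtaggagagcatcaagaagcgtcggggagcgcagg
The M-box letters began 23 bases before the start in Gpnmb and 117 bases before it in Cd63, and 1.16% of all 33469 windows hold them. AP-1 letters stood in Gpnmb, Trem2 and Cd63 and in 7.33% of all windows. RUNX letters began 126 bases before the start in Spp1, and 6.39% of windows hold them. Apoe has several windows, not printed. In 1 of them RUNX letters began 221 bases before the start, and its other windows held no match. The windows of Cd9 and Cd44, also not printed, held no match to any of these letters. The E-box letters stood in Cd63 and in 6.42% of windows. No matches overlapped within a window. The letters were chosen with these sequences in view, and a match is a description of the window, not a site in use.

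The deposited values are linear signals, scaled so that each array has nearly the same trimmed mean of about 500.1. Array medians on the log2(signal + 16) scale lay between 7.40 and 7.42 in silica and between 7.38 and 7.41 in control. The log2 ratio of 3-prime to 5-prime signals of beta-actin and GAPDH, a sign of RNA quality, was between 1.15 and 1.68 in silica and between 1.00 and 1.23 in control. The groups overlapped, with 2 of the 3 silica arrays above all control arrays, and fold changes with it as a covariate are given beside each of the 9 genes. With 3 arrays a group, their number sets the precision.

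Of the 9 genes, osteopontin (Spp1) and the fatty acid carrier gene Fabp5 rose in silica lungs (limma, Benjamini-Hochberg adjusted p under 0.05 over 31042 probe sets), and none fell. Over all named genes by brightest probe set, 1.55% rose and 0.120% fell. The same shares stand beside every count below of list genes that rose or fell. Gpnmb, Lgals3 and Trem2 had adjusted p-values between 0.0565 and 0.0778, and Cd44, Cd9, Cd63 and Apoe were further from the threshold. At an unadjusted p under 0.05, 6 of the 9 genes were higher and none lower, beside 12.6% of all genes higher and 7.24% lower. The median log2 fold change (silica minus control) was 0.56 over the 9 genes and 0.02 over all genes. The 3 silica arrays lay above the 3 control arrays for 7 of the 9 genes, as they did for 18.7% of all genes. Both calls needed all 6 arrays, as no member passed without any 1 of them. None passed with control replicate 3 and silica replicate 1 both left out, or with the RNA quality ratio as a covariate. The loss was not particular to the members. Over all 31042 probe sets, 335 passed with all arrays and 0 to 12 with 1 array left out. With both arrays left out, or with the covariate, 0 passed. With the dimmer 50% of probe sets left out, or with an intensity trend and robust spread, 6 of the 9 passed, all higher, while the share of all tested genes that rose was 8.20% in the first setting and 5.96% in the second. With pseudocount 64, and with the mean over a gene's probe sets, 5 of the 9 passed, all higher, beside 3.65% and 3.14% of all genes.

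**Figure D1:**
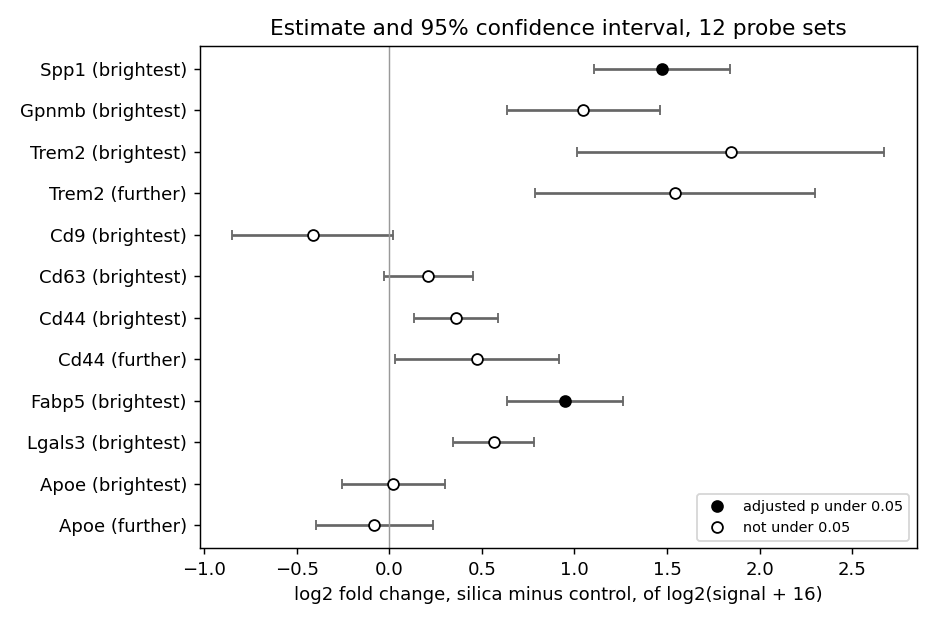
Log2 fold changes of log2(signal + 16), silica minus control, for the 12 probe sets of the 9 genes, with 95% confidence intervals from limma on the horizontal axis and 1 probe set per row. Filled points (Spp1 and Fabp5) had an adjusted p under 0.05, and Cd9 is the one brightest probe set below 0.

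Osteopontin (Spp1) had signals of 3415.2, 3928.7 and 4061.9 in the silica lungs, against 1520.3, 1125.2 and 1452.7 in the control lungs. The lowest silica value was thus more than double the highest control value. Spp1 averaged 3802 ± 341 in silica and 1366 ± 211 in control (SD, n = 3 each), 2.78-fold higher, with a log2 fold change of 1.47 ± 0.15 (SE; 95% confidence interval 1.11 to 1.84; limma adjusted p = 0.0298). With 1 array left out its log2 fold change stayed between 1.34 and 1.56 while the adjusted p was between 0.0841 and 0.110, and with the RNA quality covariate it was 1.61 (adjusted p = 0.171).

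Among 14 measured genes of the SIBLING family, to which osteopontin belongs, and of enzymes that process osteopontin, 3 rose and none fell, with a median log2 fold change of 0.36. Besides Spp1 these were the macrophage elastase gene Mmp12 and the gelatinase gene Mmp9, both able to cleave osteopontin. Mmp9 had signals of 197.1, 247.1 and 262.7 in silica lungs, against 55.7, 56.6 and 55.8 in control lungs (log2 fold change 1.80 ± 0.13, adjusted p = 0.0127), and a further Mmp9 probe set had 1.89 (adjusted p = 0.112). Mmp12 averaged 1306 ± 265 in silica and 121 ± 54.0 in control. Mmp7, or matrilysin, named after its values were seen, had 11.8, 63.3 and 60.9 in silica and 2.3, 6.2 and 4.3 in control, so it was dim throughout and did not pass (adjusted p = 0.168). The bone sialoprotein gene Ibsp, another SIBLING also named so, was dim as well, with 14.2 ± 11.5 in silica and 3.93 ± 1.96 in control.

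None of the 9 measured osteopontin receptor genes passed by limma. At an unadjusted p under 0.05, 1 was higher, beside 12.6% of all genes. The median log2 fold change of the 9 receptor genes was -0.07. Their summed signal overlapped between groups, with 19290 to 20670 in silica and 20290 to 20740 in control. By brightest probe set, Cd44, the hyaluronan and osteopontin receptor, had the smallest p of them. Its signals were 2636.1, 2800 and 2946.7 in silica lungs, against 2164.6, 2156.1 and 2187.5 in control lungs. The control arrays lay within a narrow band and all silica arrays above it, with a log2 fold change of 0.36 ± 0.09 (95% confidence interval 0.13 to 0.59; adjusted p = 0.147), and 0.44 with the RNA quality covariate. The further Cd44 probe set had 1043.9, 1029.4 and 1545.2 in silica and 883.4, 777.6 and 887.5 in control (log2 fold change 0.47 ± 0.18, adjusted p = 0.261), and 0.77 with the RNA quality covariate. The integrin gene Itga8 had the next smallest p, with 2235 ± 290 in silica and 2683 ± 67.6 in control (log2 fold change -0.27, adjusted p = 0.335). A further, dimmer Itga8 probe set had 302.2, 376.8 and 339.9 in silica and 509.9, 642.5 and 551.8 in control (log2 fold change -0.71 ± 0.14, adjusted p = 0.0814), a smaller p than that of Cd44. Cd44 is also made by activated lymphocytes, and 6 of 9 T cell marker genes rose, beside 1.55% of all genes. Those markers had a summed signal of 5692 to 6919 in silica and 2828 to 3290 in control. Their part in the Cd44 signal was not tested.

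Of 11 measured genes for hyaluronan and CD44 partners none passed by limma, with a median log2 fold change of -0.11. At an unadjusted p under 0.05, 2 were higher, beside 12.6% of all genes. Besides Cd44, the smallest p was that of Hmmr, a hyaluronan-binding protein gene that also marks dividing cells, with 93.8 ± 6.77 in silica and 59.3 ± 17.7 in control (adjusted p = 0.194; a further probe set had 0.188).

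**Figure D2:**
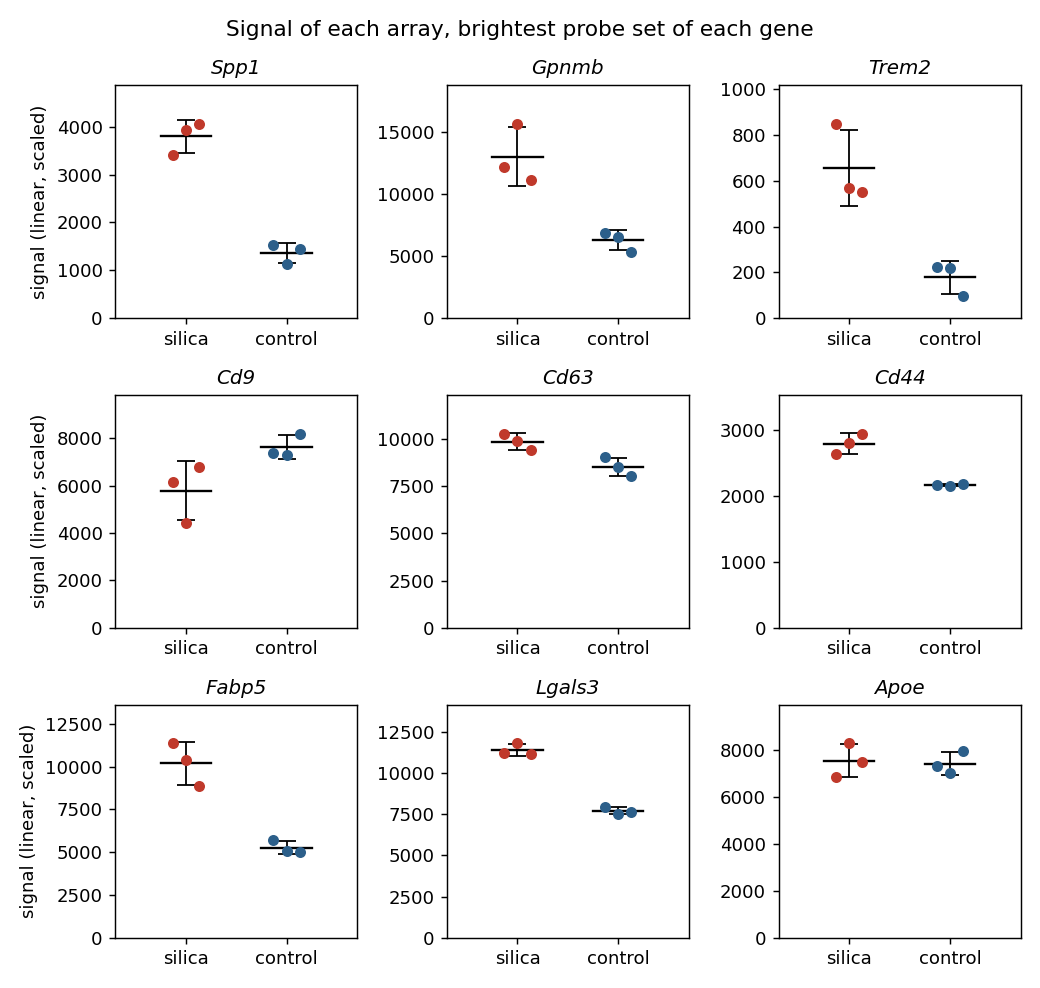
Linear scaled signal of each array (points) for the brightest probe set of the 9 genes, with the group mean (long line) and SD (bars), silica on the left and control on the right of each panel, each axis starting at 0. Silica and control arrays overlap only for Apoe, and Cd9 is the panel in which silica lies below control.

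Gpnmb had signals of 12216.9, 15692.9 and 11188.4 in silica lungs, against 6894.1, 6545.6 and 5360.7 in control lungs. Every silica value was above every control value, and the silica arrays were the more spread. The means were 13033 ± 2361 in silica and 6267 ± 804 in control, and the log2 fold change was 1.05 ± 0.17 (95% confidence interval 0.63 to 1.46; adjusted p = 0.0592). Gpnmb passed under quantile normalization, pseudocount 64, the dimmer 50% left out, the intensity trend and the mean over probe sets, and had 0.87 with the RNA quality covariate (adjusted p = 0.328).

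MITF and its relatives TFEB, TFE3 and TFEC are transcription factors of lysosome and pigment cell genes, and MITF is known to drive GPNMB in melanocytes and osteoclasts. None of the 6 measured genes of these factors, Gpnmb and its relative Pmel passed by limma, and 5 had positive log2 fold changes (median 0.39). At an unadjusted p under 0.05, 4 of the 6 were higher, beside 12.6% of all genes. Tfec, made mainly in macrophages in mice, averaged 610 ± 69.9 in silica and 340 ± 62.4 in control (log2 fold change 0.82 ± 0.16, adjusted p = 0.0878), and a further Tfec probe set had 0.39. Tfe3 and Mitf, named after their values were seen, had 0.50 and 0.29, neither past the threshold, and a further Mitf probe set had 0.53 (adjusted p = 0.111). The further Tfe3 probe sets had 0.12 and -0.37, so the Tfe3 probe sets differed in sign. The Gpnmb relative Pmel was dim in both groups (20.9 ± 16.4 in silica and 22.6 ± 17.3 in control).

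The receptor gene Trem2 had signals of 849.5, 570.2 and 549.1 in silica lungs, against 220.9, 218.9 and 95.6 in control lungs. Silica replicate 1 was the highest and control replicate 3 the lowest, and the groups did not overlap. The means were 656 ± 168 in silica and 178 ± 71.8 in control, 3.68-fold apart, and the log2 fold change of 1.84 ± 0.34 was the largest of the 9 genes. Its 95% confidence interval of 1.01 to 2.67 was also the widest of the 9, and it did not pass (adjusted p = 0.0778). The further Trem2 probe set had 729.9, 424.9 and 409.7 in silica and 203.2, 192.5 and 107.8 in control (log2 fold change 1.54 ± 0.31, adjusted p = 0.0921). Both probe sets thus placed the same 2 arrays at the ends. Without those 2 arrays the log2 fold changes were 1.29 and 1.02, and with the RNA quality covariate 1.32 and 1.02, none past the threshold.

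Of 14 measured genes of Trem2 signalling, 1 rose and none fell. It was Hcst, the DAP10 adaptor gene, which pairs with several receptors of lymphocytes and myeloid cells. Hcst had signals of 1100.2, 814.2 and 1111.2 in silica lungs, against 486.9, 471.1 and 488.5 in control lungs (log2 fold change 1.03 ± 0.15, adjusted p = 0.0458). Inpp5d, the SHIP1 phosphatase gene that restrains this pathway, had 827 ± 64.6 in silica and 512 ± 31.4 in control (log2 fold change 0.67 ± 0.11, adjusted p = 0.0563). Tyrobp, the adaptor Trem2 needs, named after its values were seen, had 4698.5, 6848.5 and 5953.4 in silica and 2897.2, 3328.4 and 3072.1 in control (log2 fold change 0.89 ± 0.16, adjusted p = 0.0741). Of the 14 genes 11 had positive log2 fold changes, with a median of 0.55.

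Fabp5, the intracellular fatty acid carrier, had signals of 11360.4, 10382.6 and 8856.9 in silica lungs, against 5692.4, 5052.9 and 5031.6 in control lungs. The groups were well apart, and the control arrays differed little among themselves. Fabp5 averaged 10200 ± 1262 in silica and 5259 ± 376 in control, 1.94-fold higher, with a log2 fold change of 0.95 ± 0.13 (95% confidence interval 0.63 to 1.26; adjusted p = 0.0428). With 1 array left out the log2 fold change stayed between 0.87 and 1.05 and the adjusted p was between 0.0981 and 0.137. With the RNA quality covariate it was 0.76 (adjusted p = 0.242). Fabp5 is also made by alveolar type 2 cells, of whose 10 marker genes none passed by limma. At an unadjusted p under 0.05, 1 was higher, beside 12.6% of all genes. The summed signal of the 10 was 125400 to 147100 in silica and 133800 to 139200 in control. The part of type 2 cells in the Fabp5 signal was not tested.

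Among the 9 measured fatty acid binding protein genes Fabp5 was the 1 that passed, and the list median was 0.02. For Fabp4, the carrier of alveolar macrophages and fat cells, the log2 fold change was 1.04 ± 0.75 (adjusted p = 0.528), and its control arrays reached from below to above all silica arrays. Of the other members, Fabp1, Fabp2, Fabp6 and Fabp7 averaged between 2.43 and 11.9 in silica and between 3.57 and 19.4 in control.

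Apoe, the cholesterol carrier of macrophages, had signals of 6864.8, 8276.2 and 7465 in silica lungs, against 7294.1, 7008.4 and 7947.4 in control lungs. The arrays of the groups were interleaved. The log2 fold change was 0.02 ± 0.11, and its 95% confidence interval of -0.26 to 0.30 leaves out changes as large as that of Fabp5. With the RNA quality covariate it was 0.092 (adjusted p = 0.882). The further Apoe probe set gave signals of at most 3.5 in silica and 7.5 in control and so carried no usable level. In all, 1 of 18 measured genes of apolipoprotein E and macrophage lipid handling rose, namely Fabp5, and the list median was 0.27. At an unadjusted p under 0.05, 7 were higher and 2 lower, beside 12.6% and 7.24% of all genes. The lipid droplet coat gene Plin2 had 3537 ± 343 in silica and 2360 ± 117 in control (log2 fold change 0.58 ± 0.11, adjusted p = 0.0886), and a further Plin2 probe set had 0.20. The 2 lower genes, named after their values were seen, were Vldlr (-0.56) and Abca1 (-0.23), neither past the threshold. Further probe sets had -0.53, -0.35 and -0.52 for Vldlr, and 0.02, -0.37 and -0.38 for Abca1. All Vldlr probe sets had the silica arrays below all control arrays.

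Lgals3, which encodes galectin-3, a galactoside-binding lectin of macrophages and epithelium, had signals of 11205.7, 11797.8 and 11178.5 in silica lungs, against 7942.9, 7535.1 and 7639.7 in control lungs. Both groups were tight and did not overlap. The means were 11394 ± 350 in silica and 7706 ± 212 in control, with a log2 fold change of 0.56 ± 0.09 (95% confidence interval 0.34 to 0.78; adjusted p = 0.0565). That log2 fold change stayed between 0.54 and 0.59 under every alternative run (0.55 with the RNA quality covariate), and it passed under pseudocount 64, the dimmer 50% left out, the intensity trend and the mean over probe sets. Of 9 measured galectin genes none passed by limma, with a median of 0.01. At an unadjusted p under 0.05, 2 were higher, beside 12.6% of all genes. Lgals3bp, the galectin-3 binding protein gene, had 3285 ± 442 in silica and 2190 ± 24.9 in control (log2 fold change 0.57 ± 0.12, adjusted p = 0.104).

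The tetraspanin genes of the group differed in sign. Cd63, a tetraspanin of late endosomes and lysosomes, had signals of 10281.1, 9891.3 and 9404.6 in silica lungs, against 9033, 8488 and 8051.2 in control lungs. The silica arrays were all above the control arrays, by a small margin (log2 fold change 0.21 ± 0.10, 95% confidence interval -0.03 to 0.45, adjusted p = 0.340), and it was 0.12 with the RNA quality covariate and 0.14 without control replicate 3 and silica replicate 1. Cd9, a tetraspanin of the cell surface, had signals of 6150.1, 4418.1 and 6791.7 in silica lungs, against 7364.3, 7268.8 and 8189.7 in control lungs. Here the silica arrays were all below the control arrays, as for 12.7% of all genes, and silica replicate 2 was the lowest. The log2 fold change was -0.42 ± 0.18 (95% confidence interval -0.85 to 0.02; adjusted p = 0.305), and it was -0.23 without silica replicate 2 and -0.26 with the RNA quality covariate.

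None of 24 measured tetraspanin genes passed by limma, while at an unadjusted p under 0.05 there were 4 higher and 9 lower, beside 12.6% and 7.24% of all genes. In all, 8 had positive log2 fold changes, and the median was -0.11. Tspan8, a tetraspanin of epithelium, had 8591 ± 407 in silica and 11623 ± 72.3 in control (log2 fold change -0.44 ± 0.09, adjusted p = 0.0997). Tspan6 had 1264 ± 27.5 in silica and 1783 ± 183 in control (adjusted p = 0.117). Cd9 is also made by alveolar type 1 and endothelial cells. None of the 7 measured alveolar type 1 marker genes passed (limma; 4 lower at an unadjusted p under 0.05, beside 7.24% of all genes), 1 had a positive log2 fold change, and their summed signal was 66930 to 71100 in silica and 80120 to 84020 in control. None of 8 endothelial marker genes passed by brightest probe set either (1 lower at an unadjusted p under 0.05), with 38130 to 43810 in silica and 45600 to 47730 in control. A further probe set of the endothelial gene Egfl7, named after its value was seen, did pass, with 1516 ± 134 in silica and 2711 ± 128 in control (log2 fold change -0.83 ± 0.11, adjusted p = 0.0405), while its brightest had -0.24 (adjusted p = 0.302). The part of these cells in the Cd9 signal was not tested. In whole lung, fewer cells of a type and less RNA per cell cannot be told apart.

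Of 13 measured macrophage marker genes, 5 rose and none fell, beside 1.55% and 0.120% of all genes. The median log2 fold change of the 13 was 0.82. The complement gene C1qa averaged 1876 ± 69.5 in silica and 669 ± 81.6 in control, and C1qc 988 ± 71.4 in silica and 459 ± 66.5 in control. The lysosomal glycoprotein gene Cd68 averaged 5138 ± 630 in silica and 2764 ± 125 in control. The markers did not change alike, although 11 of the 13 had positive log2 fold changes. Csf1r, Mrc1 and Mertk, named after their values were seen, had 0.10, 0.03 and 0.11. Lyz2, also named so, had -0.21 and Cd163 -0.45, none of these past the threshold. The summed marker signal was 35490 to 44410 in silica and 33120 to 34330 in control. Much of that sum was Lyz2, the brightest marker, with 17624 ± 3636 in silica and 20196 ± 881 in control. On the log2 scale the marker mean lay 0.47, 0.68 and 0.61 above the control mean in the silica arrays. No defining marker was at 0, although Cd163 was dim (48.7 in silica and 73.9 in control).

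Set against that marker mean within each array, the 9 genes showed 3 patterns, given as a description. Spp1, relative to the markers, lay 0.86, 0.85 and 0.97 above its control mean in the silica arrays, against 0.20, -0.24 and 0.04 in the control arrays. Trem2 and Gpnmb also stayed above all control arrays, with mean differences of 1.26 and 0.46. Fabp5 (0.36) and Lgals3 (-0.02) overlapped with control on this scale. Apoe, Cd9, Cd63 and Cd44 lay below all control arrays, with mean differences of -0.56, -0.999, -0.37 and -0.22. The marker mean itself was 0.58 higher in silica, so a gene unchanged as measured also lies below control on this scale. Cd63 and Cd44 were higher in silica as measured, by 0.21 and 0.36. The shares of all genes above and below control on this scale were not computed. An exact permutation test of 3 against 3 arrays cannot give a p under 0.1, so these differences were not tested further. A difference within an array shows unequal change, not which gene changed.

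**Figure D3:**
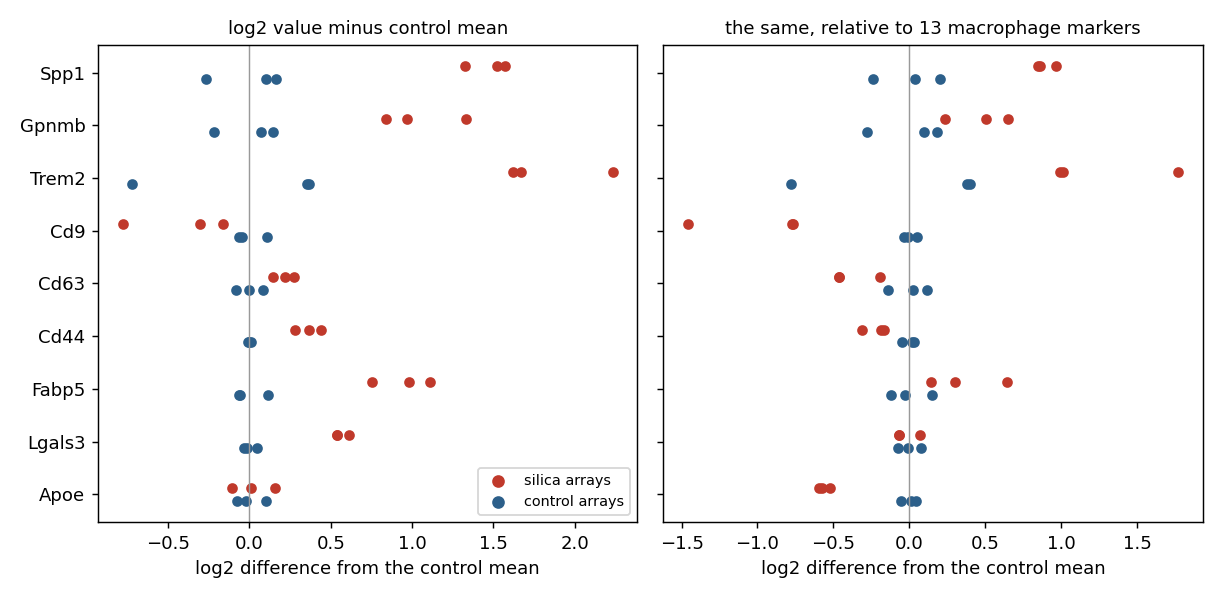
Log2 difference of each array from the control mean (horizontal axis) for the 9 genes (rows), silica arrays above control arrays in each row. The left panel shows the genes as measured, and the right panel the same after the mean of 13 macrophage marker genes was subtracted within each array. There Spp1, Gpnmb and Trem2 remain above control and Cd9, Cd63, Cd44 and Apoe lie below it. A gene unchanged as measured also lies below control in the right panel.

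No 1 silica animal held most of the highest values, as each silica array had the highest silica value for 3 of the 9 genes. The lowest silica values were less even, with 5 in silica replicate 3, 3 in silica replicate 1 and 1 in silica replicate 2. Spp1 and Cd44 were highest in silica replicate 3, Gpnmb and Lgals3 in silica replicate 2, and Trem2 and Fabp5 in silica replicate 1. Control replicate 1 held the highest control value for 6 of the 9 genes.

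Of 25 further genes reported in scar- or lipid-associated macrophages, 8 rose and none fell. In all, 22 had positive log2 fold changes, as had 7628 of all 14217 genes, and the median was 0.50, against 0.02 over all genes. At an unadjusted p under 0.05, 18 were higher and 1 lower, beside 12.6% and 7.24% of all genes. Chi3l1, a chitinase-like protein gene, had 5651.9, 6964.9 and 5496.3 in silica lungs, against 2057.3, 2248.1 and 1776.3 in control lungs (log2 fold change 1.57 ± 0.15, adjusted p = 0.0248). Capg, an actin-capping protein gene, had 4019.8, 4046 and 3738.6 in silica lungs, against 1751.2, 1968.5 and 1558 in control lungs (log2 fold change 1.16 ± 0.12, adjusted p = 0.0298). Neither gene had overlapping groups. Mmp12, above, and the collagen-degrading cathepsin gene Ctsk were the others with the smallest p, and Ctsk averaged 431 ± 61.3 in silica and 151 ± 12.5 in control. Acp5, Ctsz, Cd68 and Itgax, which complete the 8, had log2 fold changes of 0.79, 1.09, 0.88 and 0.83, with Ctsz and Itgax named after their values were seen. Chit1, Anxa2, S100a4 and Mertk, also named so, had between 0.01 and 0.11, and dim further probe sets of Anxa2 and Mertk had -0.28 and -0.49, neither past the threshold. Sdc2, Ctsl and Cd36, named so too, were negative, with -0.25, -0.15 and -0.36, none past the threshold. The silica arrays lay below all control arrays for Sdc2 and Ctsl. Further probe sets of Sdc2 had -0.37 and -0.26, and that of Ctsl had -0.25.

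Ctsk, Acp5 and Mmp9 are osteoclast genes as well, and all 3 rose, out of 5 measured osteoclast marker genes. The calcitonin receptor gene Calcr, which marks mature osteoclasts, was dim in both groups (18.8 ± 19.8 in silica and 20.8 ± 19.2 in control). Tnfrsf11a, also of that list and named after its values were seen, had 83.9 ± 10.1 in silica and 46.3 ± 4.46 in control. Its log2 fold change was 0.68 ± 0.12, and it did not pass (limma adjusted p = 0.0694).

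Alveolar type 2 markers were bright in the labelled lung tissue, with Sftpb at 17316 ± 1572 in silica and 19606 ± 472 in control. The type 2 marker genes with the smallest p, Lpcat1 and Abca3, had log2 fold changes of 0.29 and 0.22, neither past the threshold. Monocyte, fibroblast, smooth muscle and club cell marker genes gave 0 calls out of 9, 8, 6 and 3 measured by limma at the adjusted p threshold. At an unadjusted p under 0.05 there were 3 monocyte and 1 fibroblast marker genes higher, 1 club cell marker gene lower and 0 smooth muscle genes. Beside these counts, 12.6% of all genes were higher and 7.24% lower. Of 6 neutrophil marker genes 1 rose, and their summed signal was 26390 to 38690 in silica and 10650 to 12050 in control. The 1 was the lipocalin gene Lcn2, which epithelium also makes (19150 ± 3089 in silica and 5083 ± 309 in control), and without it the sum was 9312 to 15990 in silica and 5300 to 6892 in control. Of 7 resident alveolar macrophage marker genes 1 rose, with a summed signal of 13130 to 14260 in silica and 11110 to 11590 in control. The 1 was Itgax, also counted above among the further scar- or lipid-associated macrophage genes. At an unadjusted p under 0.05, 3 of the 7 were higher and 1 lower, and 6 had positive log2 fold changes. The lower gene was Car4, named after its values were seen (log2 fold change -0.54, not past the threshold). All silica arrays lay below all control arrays for Car4. The part of these cell types in the values of the 9 genes was not tested.

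**Figure D4:**
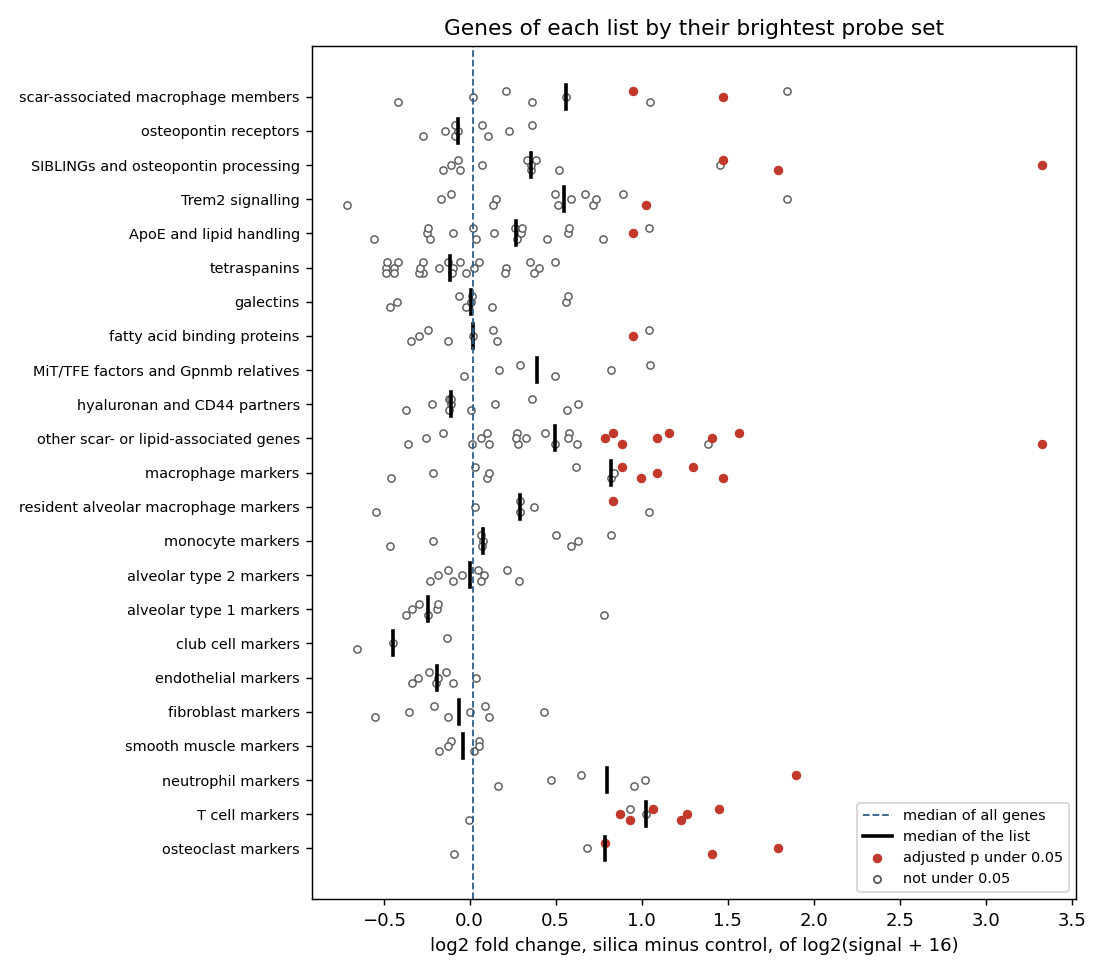
Log2 fold change (silica minus control) of log2(signal + 16) for the genes of each list (rows) by brightest probe set, with genes past the adjusted p threshold filled and the list median as a bar. The dashed line is the median of all genes (0.02), and the 9 scar-associated macrophage genes have their median at 0.56.

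The genes most like Spp1 over the 6 arrays were found by the root mean square difference of log2 values from each gene's control mean, among 10163 genes with a mean log2 value of at least 7. They were C1qa (0.09), the immune receptor gene Slamf9 (0.15), the sodium pump regulator gene Fxyd2 (0.15), the chemokine gene Ccl3 (0.16) and the mast cell protease gene Mcpt10 (0.17). C1qa had signals of 1871.9, 1947.6 and 1808.8 in silica lungs, against 715.2, 574.7 and 716.8 in control lungs, and like Spp1 it was lowest in control replicate 2. Of the other 8 genes, Gpnmb and Fabp5 were the most like Spp1, with differences of 0.39 and 0.43, and ranked 120 and 160 in likeness.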

How the data were processed

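Whole-lung RNA from 3 silica-exposed and 3 filtered-air Lewis rats was hybridised to 1-colour arrays. Per the labels' protocols, a phenol-based reagent was used for extraction, and in vitro transcription gave biotinylated cRNA. The authors deposited 1 linear signal intensity for each probe set on each array. The sources used here do not give the summarising software, scaling method or filters. By their values, the deposited intensity columns share a mean near 500.1 once the top and bottom 2% are trimmed.

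Of 31099 probe sets, 57 array controls were left out. Of the rest, 20826 had 1 gene in the platform annotation (20758 updated by identifier to RefSeq's GRCr8 table, used for names only), 436 had several and 9780 are unnamed here. Log2(signal + 16) was compared by limma 3.58.1 in R 4.3.3 (lmFit, eBayes; 1 term for group; degrees of freedom 4 residual and 2.18 prior), with Benjamini-Hochberg adjustment over 31042 probe sets and a threshold of 0.05. The fit was tested on simulated data.

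Members, lists and tests were chosen with earlier results of these data known. Beyond the members, the genes named were those with the smallest p in each list (up to 4 past the threshold, or 2 where fewer than 2 passed, and up to 3 for the macrophage, alveolar type 2 and osteoclast markers) and the 5 most like Spp1. Cd163, Calcr, Pmel, Fabp1, Fabp2, Fabp6, Fabp7, Lcn2 and the genes marked so in the text were named after their values were seen. Alternatives covered normalization, centring, filter, moderation, pseudocount, weights, block, arrays left out, RNA quality, probe set rule and threshold.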

Additional observations from a re-analysis of the deposited data

How the results depend on the processing

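Under the 19 alternatives the log2 fold change of Spp1 stayed positive, between 1.34 and 1.61, but its adjusted p passed in 7. Its value was 1.47 without moderation of the spread (adjusted p = 0.0754), with the replicate block (adjusted p = 0.153) and at the stricter threshold of 0.01, 1.48 with pseudocount 1 (adjusted p = 0.0589), 1.60 without control replicate 3 and silica replicate 1, and 1.61 with the RNA quality covariate, none past the threshold. With 1 array left out it ranged from 1.34 to 1.56, none past the threshold. The number of the 9 genes past the threshold was 2 with all arrays. It was 0 without moderation, with pseudocount 1 and with the replicate block, where 40, 43 and 1 of all probe sets passed. It was also 0 without control replicate 3 and silica replicate 1 and with the RNA quality covariate, where 0 of all probe sets passed. It was 0 too at the threshold of 0.01 (6 probe sets) and without any 1 array (0 to 0, with 0 to 12 probe sets). It was 5 with pseudocount 64 and with the mean over probe sets, where 3.65% and 3.14% of all genes rose, and 6 with the dimmer 50% left out and with the intensity trend and robust spread, where 8.20% and 5.96% rose, against 1.55% with all arrays and probe sets. The causes were not tested. Fabp5 likewise stayed positive (0.76 to 1.05) and passed in 7 of 19. The signs of Spp1, Gpnmb, Trem2, Cd9, Cd63, Cd44, Fabp5 and Lgals3 held in every alternative. Apoe (0.02 with all arrays) was -0.031 with the mean over probe sets and between -0.049 (without silica replicate 2) and 0.14 with arrays left out, being -0.019 without control replicate 2. Its dim further probe set ranged from -0.27 (pseudocount 1) to 0.032 (without control replicate 2), and from -0.16 to 0.032 with 1 array left out. Over all probe sets the calls ranged from 0 to 1862, against 335. Same-numbered control and silica samples had correlations of deviations of 0.092, 0.035 and 0.088, and each sample correlated best with its own number. The correlations between unlike numbers lay between -0.079 and -0.002. Whether the numbers mark pairs was not tested, and the main fit did not use them. The replicate block left 1 probe set past the threshold. The number of arrays and the dim further Apoe probe set limit what can be measured.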

Other observations

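Fabp4, the relative of Fabp5 in alveolar macrophages and fat cells, had signals of 989.4, 1200.3 and 985.1 in silica lungs, against 562.5, 146.9 and 1475 in control lungs. The silica arrays lay close together while the control arrays reached from below to above them, in contrast to Fabp5, whose control arrays lay between 5031.6 and 5692.4. The Fabp4 values were chosen after they were seen.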
